A study of Mus musculus with 2 samples.

Results

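The genes described here are 10 transcription factor genes of naive, memory and follicular T cells, namely *Tcf7*, *Lef1*, *Sox4*, *Tox*, *Tox2*, *Satb1*, *Id2*, *Id3*, *Bach2* and *Bcl6*. They were taken from the deposited expression table by gene symbol, and all 10 were found among its 16830 rows. *Bcl6* and *Tcf7* were the members at least 2-fold apart, both higher in USP21-ΔTreg cells, and no member was at least 2-fold lower. The library of USP21-ΔTreg cells came from C57BL/6 mice of 6 months with the genotype Foxp3-YFP-Cre/USP21-floxp/floxp. The library of WT Treg cells came from C57BL/6 mice of 6 months with the genotype Foxp3-YFP-Cre alone. Both groups therefore carry the Cre, which is fused to YFP and driven from the *Foxp3* locus, so that *Usp21*, the gene of a deubiquitinase, is deleted only in cells that express *Foxp3*. Both libraries were made from CD4+CD25hiYFP+ cells sorted from spleen and lymph nodes. How many mice went into each is not given in the sources used here.

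There was 1 library per genotype. No test was therefore possible, no p-value is given, and the values compare 1 library with another. The libraries held 23418573 fragments in genes for USP21-ΔTreg cells and 23198432 for WT Treg cells. *Usp21* itself stood at 4.56 FPKM in USP21-ΔTreg cells and at 11.8 FPKM in WT Treg cells. FPKM is the number of fragments relative to the length of the transcript and the size of the library. *Foxp3* stood at 55.2 FPKM in USP21-ΔTreg cells and 91.8 FPKM in WT Treg cells. *Il2ra*, which encodes the CD25 used in the sort, stood at 19.3 FPKM in USP21-ΔTreg cells and 168 FPKM in WT Treg cells. In such bulk samples, fewer cells of a type and less RNA per cell cannot be told apart.

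TCF-1, encoded by *Tcf7*, and its relative LEF1 bind DNA through a high mobility group (HMG) box, with which they bend it. They recruit TLE corepressors or, in their longer isoforms, β-catenin, and are high in naive and memory T cells and low in terminal effectors. TOX, TOX2 and SOX4 also carry an HMG box. ID2 and ID3 lack a DNA-binding region and hold the E proteins off DNA. BACH2 and BCL6 are repressors, BACH2 of effector genes and BCL6 of *Prdm1*, whose product BLIMP1 in turn represses *Bcl6*. In Treg cells TCF-1, LEF1, BACH2 and SATB1 are known from resting cells or from development in the thymus, and BCL6 from follicular regulatory T cells.

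The DNA before the annotated start of the most different member, *Bcl6*, and of the other repressor, *Bach2*, is shown here because their RNA differed in unlike ways. The sequences are RefSeq windows of 250 bases before a gene start on GRCm38.p6, the assembly of mm10. Capitals mark matches to TTCNNNGAA, which reads the same on both strands and is the core to which STAT factors bind. These factors act below cytokine receptors such as that of IL-2.
Bcl6, outer start, chr16:23988853-23989102, minus strand: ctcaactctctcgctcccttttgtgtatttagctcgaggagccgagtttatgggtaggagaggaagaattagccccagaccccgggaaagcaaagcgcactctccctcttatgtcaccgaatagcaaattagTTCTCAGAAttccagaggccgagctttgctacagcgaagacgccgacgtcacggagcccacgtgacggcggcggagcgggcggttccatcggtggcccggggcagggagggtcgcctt
Bcl6, inner start, chr16:23981284-23981533, minus strand: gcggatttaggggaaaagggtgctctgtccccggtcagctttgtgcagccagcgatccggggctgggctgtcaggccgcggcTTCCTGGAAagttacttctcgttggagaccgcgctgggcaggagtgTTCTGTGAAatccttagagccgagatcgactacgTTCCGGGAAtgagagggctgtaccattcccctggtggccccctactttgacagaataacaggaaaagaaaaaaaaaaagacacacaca
Bach2, chr4:32417185-32417434, plus strand: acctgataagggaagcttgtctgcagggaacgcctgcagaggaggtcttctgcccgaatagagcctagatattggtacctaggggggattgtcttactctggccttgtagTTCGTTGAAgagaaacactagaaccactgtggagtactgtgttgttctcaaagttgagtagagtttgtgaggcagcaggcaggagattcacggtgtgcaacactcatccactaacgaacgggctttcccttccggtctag

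The outer *Bcl6* window lies before the gene as GENCODE M21 draws it, and the inner one lies within its span but in neither coding sequence nor UTR, 7329 bases from the gene start in the deposited table. The *Bach2* window ends at the start that the deposited table uses, which lies inside the longer gene of GENCODE M21. The inner *Bcl6* window held 3 matches, the first bases of which lay 168, 122 and 88 bases before the start. The outer *Bcl6* window held a match 118 bases and the *Bach2* window a match 140 bases before the start. Of all 32851 RefSeq windows of this length, 7.02% held a match and 9 held at least 3. RefSeq windows were found for 9 of the 10 genes, all but *Tox*, and 3 of their 22 windows held the motif, those shown. The LEF1 and TCF-1 motif CTTTGAT, searched on both strands, was found in 2 overlapping windows of *Tox2* and in 3.21% of all windows. The E protein motif CANNTG was found in 14 of the 22 windows, from 7 of the genes, and in 66.2% of all windows. The motifs were chosen after the expression values were seen. A match is a description of the letters and not a site of binding, and gene values do not tell which start was used.

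After 0.1 was added to every FPKM, log2 fold changes of USP21-ΔTreg relative to WT were taken, a scale that understates differences of low genes. The limit for a call was 2-fold in either direction, applied to the 10948 genes with a mean of at least 1 FPKM. Of the 10 members, 9 passed this filter. *Tox2*, with a mean of 0.943 FPKM, did not. Of the 9, 2 were higher in USP21-ΔTreg cells by 2-fold or more, against 7.78% of all kept genes, and 0 were lower, against 6.2%. On fragment counts, which the authors also deposited after scaling between libraries, 2 of the 9 were again higher, against 4.36% of kept genes, and 0 lower, against 7.91%. The same genes, *Tcf7* and *Bcl6*, made up the count on both scales. The median log2 fold change of the 9 was 0.48, beside 0.20 for all kept genes. On scaled counts, with 1 added, these medians were 0.34 and −0.01. The FPKM values of the kept genes are thus shifted upwards by 0.20 as a whole, and changes relative to this shift are given below as centred values. A positive FPKM fold change was found for 7 of the 9 and for 63.4% of kept genes.

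**Figure D1:**
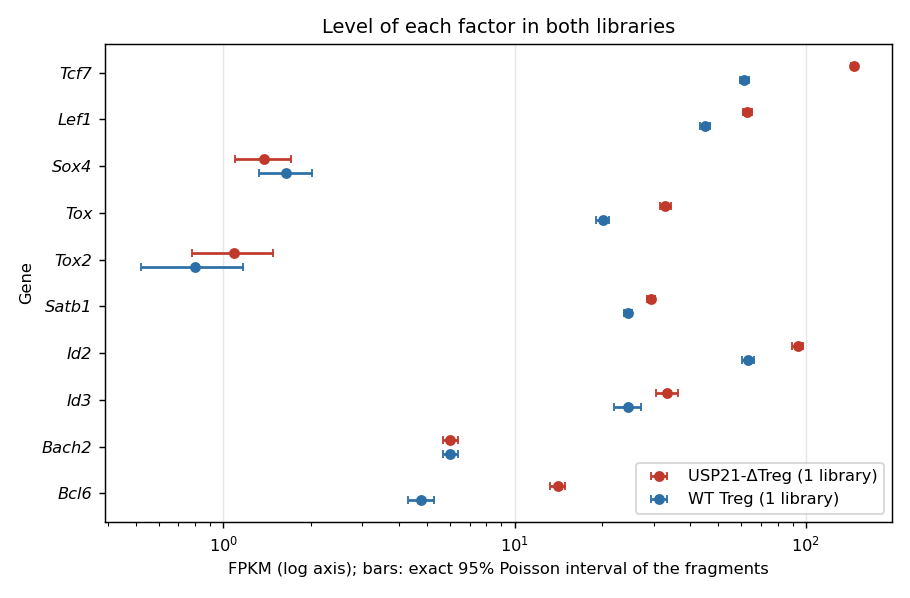
FPKM of each factor (log axis) in the USP21-ΔTreg library (upper point of each row) and the WT Treg library (lower point), with exact 95% Poisson intervals of the fragments, which cover counting error only. Tcf7 and Bcl6 lie clearly apart, at 146 and 14.0 FPKM in USP21-ΔTreg cells against 61.4 and 4.78 FPKM in WT Treg cells, whereas the points of Bach2 coincide and the intervals of Sox4 and Tox2 overlap.

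The levels of the members spanned from 146 FPKM for *Tcf7* to 1.09 FPKM for *Tox2* in USP21-ΔTreg cells, and from 63.1 FPKM for *Id2* to 0.796 FPKM for *Tox2* in WT Treg cells. In USP21-ΔTreg cells the order by FPKM, from high to low, was *Tcf7*, *Id2*, *Lef1*, *Id3*, *Tox*, *Satb1*, *Bcl6*, *Bach2*, *Sox4* and *Tox2*. Among these neighbours, the 95% counting intervals overlapped for *Id3* with *Tox* and for *Sox4* with *Tox2*. In WT Treg cells the order was *Id2*, *Tcf7*, *Lef1*, *Satb1*, *Id3*, *Tox*, *Bach2*, *Bcl6*, *Sox4* and *Tox2*, and intervals overlapped for *Id2* with *Tcf7* and for *Satb1* with *Id3*. *Tcf7* thus stood above *Id2* in USP21-ΔTreg cells only. *Bcl6* stood above *Bach2* in USP21-ΔTreg cells and below it in WT Treg cells, in each case with intervals apart. Summed over the members, there were 421 FPKM in USP21-ΔTreg cells and 252 FPKM in WT Treg cells.

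In the deposited table *Tcf7* (Entrez gene 21414) spans positions 52252604 to 52282571 of mm10 chromosome 11, and it is read from the minus strand. It stood at 146 FPKM, from 7485 fragments, in USP21-ΔTreg cells and at 61.4 FPKM, from 3066 fragments, in WT Treg cells. Its log2 fold change was 1.25, or 1.05 when centred, and 3.87% of kept genes had a higher one. Its scaled counts stood in a ratio of 2.18, with a Clopper-Pearson 95% interval from 2.09 to 2.27 that, like all intervals here, covers counting error only. The whole interval lay above 2-fold. Long and short isoforms of TCF-1, which differ in the β-catenin-binding part, are summed in this value. The study took its differing genes from these same libraries, so the value of *Tcf7* here is not independent of them.

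*Lef1* (Entrez gene 16842), on the plus strand of chromosome 3 from 131110297 to 131224357, differed less than its relative. It stood at 63.0 FPKM (3669 fragments) in USP21-ΔTreg cells and 45.1 FPKM (2593 fragments) in WT Treg cells. The log2 fold change was 0.48, or 0.29 when centred, and the ratio of scaled counts was 1.26 (1.20 to 1.33). The interval excluded both no difference and a 2-fold difference. The ratio of *Tcf7* to *Lef1* within a library, on FPKM, was 2.32 in USP21-ΔTreg cells, against 1.36 in WT Treg cells. In fragments, where the scaling between libraries cancels, the odds of *Tcf7* over *Lef1* were 1.73 times those in WT Treg cells (95% exact conditional interval 1.61 to 1.84). *Tcf7* made up 59.8% of the summed FPKM of the 5 HMG-box members in USP21-ΔTreg cells, against 47.6% in WT Treg cells. The gene pairs set in such ratios here and below were picked after their values had been seen.

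*Sox4*, whose product is an HMG-box factor of early T and B cell development, was among the low members. It stood at 1.38 FPKM (83 fragments) in USP21-ΔTreg cells and 1.64 FPKM (92 fragments) in WT Treg cells, a log2 fold change of −0.23. The ratio of scaled counts was 0.804 (0.591 to 1.09), so a difference was not detectable at this depth. GENCODE M21 places 2616 exon bases of the noncoding gene *Gm26735* on the strand opposite to *Sox4* exons. Reads of such a partner can be told apart only if counting used strand, which is not given in the sources used here. The same holds for *Lef1*, of which 1208 exon bases face *Gm43352*, for *Bach2* with 537 bases facing *Bach2os*, and for *Tox* with 260 facing *Gm11802*. It also holds for *Satb1* with 128 facing *Gm6934* and for *Bcl6* with 21 facing *Gm37419*. *Satb1* shares 156 exon bases with *Gm36931* on its own strand, where strand does not separate reads. *Foxp3* faces 590 exon bases of *Ccdc22*, 373 of *Gm36995* and 266 of *Ppp1r3f*, and shares 853 with *Flicr* on its own strand.

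*Tox* (Entrez gene 252838) spans 303338 bases on the minus strand of chromosome 4, from 6687386 to 6990723. TOX is needed for CD4 lineage development in the thymus and, in CD8 T cells, for the exhausted state. *Tox* stood at 32.9 FPKM (2039 fragments) in USP21-ΔTreg cells and 20.1 FPKM (1367 fragments) in WT Treg cells. Its log2 fold change of 0.71, or 0.51 when centred, was the largest on FPKM of the members short of 2-fold. The ratio of scaled counts was 1.33 (1.24 to 1.43), below those of *Id3* (1.45) and *Tox2* (1.37). *Tox2*, a relative known from follicular helper T cells, had 40 fragments (1.09 FPKM) in USP21-ΔTreg cells and 26 fragments (0.796 FPKM) in WT Treg cells. The ratio of its scaled counts was 1.37, with an interval from 0.817 to 2.34 that holds both 1 and 2. The ratios of *Tox* and *Tox2* were thus 1.33 and 1.37 on scaled counts, but 1.64 and 1.37 on FPKM. Their depths allow a statement on *Tox* alone.

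*Satb1*, the gene of a chromatin organiser that is kept low in Treg cells by FOXP3, stood at 29.3 FPKM (4067 fragments) in USP21-ΔTreg cells and 24.5 FPKM (3916 fragments) in WT Treg cells. The log2 fold change was 0.26, or 0.07 when centred. On scaled counts the direction turned, with a ratio of 0.926 (0.886 to 0.968). No direction can therefore be given for *Satb1*. In USP21-ΔTreg cells *Tox* stood above *Satb1*, at a ratio of 1.12 on FPKM, and in WT Treg cells below it, at 0.821. The fragment odds of *Tox* over *Satb1* were 1.44 times those in WT Treg cells (1.32 to 1.56).

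**Figure D2:**
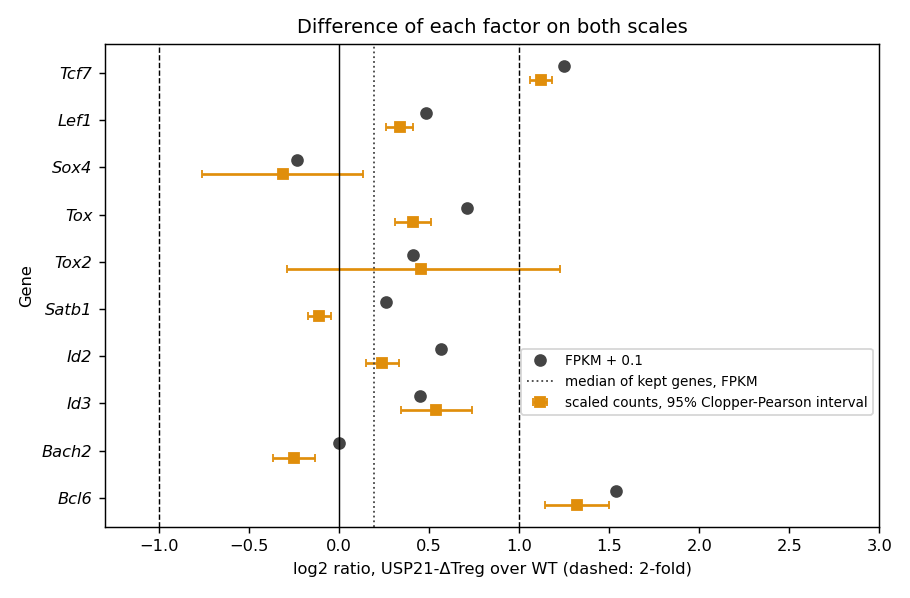
Log2 ratio of each factor, USP21-ΔTreg over WT, on FPKM + 0.1 (circles) and on scaled counts (squares, with 95% Clopper-Pearson intervals of counting error), dashed lines marking 2-fold and the dotted line the median of kept genes on FPKM. Tcf7 and Bcl6 lie beyond 2-fold on both scales, while Satb1 stands at 0.26 on FPKM and −0.11 on counts and Bach2 at 0.00 and −0.25.

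*Id2* (Entrez gene 15902) on chromosome 12 and *Id3* (Entrez gene 15903) on chromosome 4 are the Id genes with the most RNA in these libraries. ID2 is known for its rise in effector T cells, and ID3 marks memory precursors and, with ID2, keeps follicular regulatory T cells in check. *Id2* stood at 93.6 FPKM (2380 fragments) in USP21-ΔTreg cells and 63.1 FPKM (1796 fragments) in WT Treg cells, a log2 fold change of 0.57, or 0.37 when centred. Its ratio of scaled counts was 1.18 (1.11 to 1.26). *Id3* stood at 33.4 FPKM (556 fragments) in USP21-ΔTreg cells and 24.4 FPKM (341 fragments) in WT Treg cells, a log2 fold change of 0.45, or 0.26 when centred. Its ratio of scaled counts was 1.45 (1.27 to 1.67). Both genes were higher by less than 2-fold on both scales, but which of them differed more depended on the scale. On FPKM the ratio of *Id2* to *Id3* was 2.80 in USP21-ΔTreg cells, against 2.59 in WT Treg cells, whereas the fragment odds of *Id2* over *Id3* were 0.813 times those in WT Treg cells (0.699 to 0.945).

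The E proteins that ID2 and ID3 bind, and the remaining Id genes, showed other values. *Id1* stood at 0.741 FPKM (12 fragments) in USP21-ΔTreg cells and 3.34 FPKM (45 fragments) in WT Treg cells, a log2 fold change of −2.03. The ratio of its scaled counts was 0.238 (0.114 to 0.457). *Tcf12*, which encodes the E protein HEB, stood at 34.0 FPKM in USP21-ΔTreg cells and 25.0 FPKM in WT Treg cells (log2 fold change 0.44). *Tcf3*, which encodes E2A, stood at 18.8 and 20.7 FPKM in the same order (−0.14). Of the 3 kept genes of this list of 5, *Id1* was the 1 past 2-fold and it was lower, as were 6.2% of all kept genes. *Id2* and *Id3* together made up 127 FPKM in USP21-ΔTreg cells and 87.5 FPKM in WT Treg cells. Over the sum of *Tcf3*, *Tcf4* and *Tcf12* this was a ratio of 2.35 in USP21-ΔTreg cells, against 1.89 in WT Treg cells.

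*Bach2* (Entrez gene 12014), from 32417435 to 32586108 on the plus strand of chromosome 4, had the same level in both libraries on FPKM. It stood at 6.02 FPKM in each, with 1163 fragments in USP21-ΔTreg cells and 1235 fragments in WT Treg cells. The log2 fold change was 0.00, or −0.20 when centred, and 63.4% of kept genes had a higher one. On scaled counts the ratio was 0.840 (0.774 to 0.910). The interval lay wholly below 1 and excluded a 2-fold difference in either direction, so equality held on FPKM only.

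*Bcl6* (Entrez gene 12053), from 23965052 to 23988612 on the minus strand of chromosome 16, differed most. It stood at 14.0 FPKM (1007 fragments) in USP21-ΔTreg cells and 4.78 FPKM (360 fragments) in WT Treg cells. Its log2 fold change was 1.53, or 1.34 when centred, and 1.84% of kept genes had a higher one. The ratio of scaled counts was 2.49 (2.21 to 2.82), so this interval too lay wholly above 2-fold. *Prdm1*, which encodes BLIMP1, stood at 7.32 FPKM in USP21-ΔTreg cells and 8.39 FPKM in WT Treg cells. *Bcl6* was thus above *Prdm1* in USP21-ΔTreg cells, at a ratio of 1.92 on FPKM, and below it in WT Treg cells, at 0.570. The fragment odds of *Bcl6* over *Prdm1* were 3.57 times those in WT Treg cells (3.07 to 4.16), and those of *Bcl6* over *Bach2* 2.97 times (2.56 to 3.44). Both repressors carry a BTB domain. The windows of both genes shown above hold the STAT motif, and its part in the RNA of either gene was not tested.

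**Figure D3:**
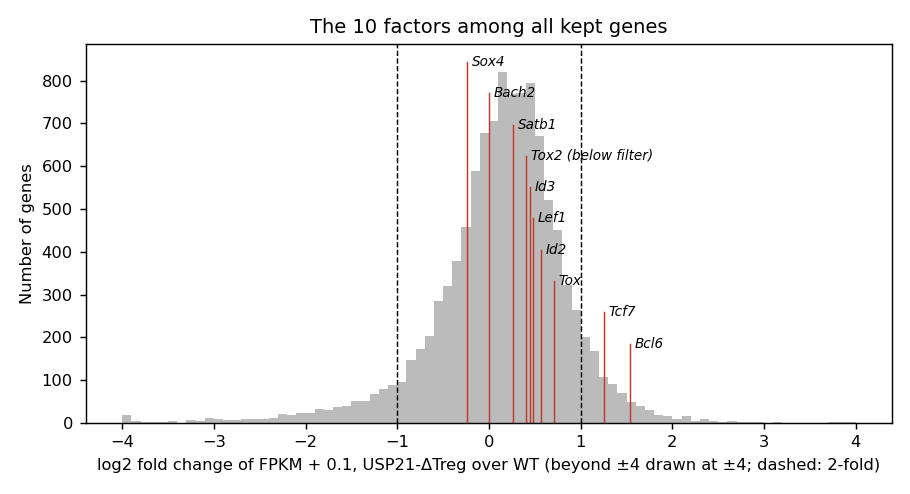
Distribution of the log2 fold change of FPKM + 0.1, USP21-ΔTreg over WT, over the 10948 kept genes in bins of equal width (grey), with a line for each factor, whose height has no meaning. Only Tcf7 and Bcl6 lie beyond the dashed line of 2-fold, at 1.25 and 1.53, and Bach2, at 0.00, and Sox4, at −0.23, lie below the median of 0.20.

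The gap between FPKM and count fold changes was not the same for every member. It was largest for *Satb1* (0.37), *Id2* (0.33) and *Tox* (0.30), and below 0 for *Id3* (−0.09) and *Tox2* (−0.03). The ratios of *Tox2* with nothing added were 1.368 on FPKM and 1.372 on counts. Its gap thus comes mostly from the values added before the log. The longest GENCODE M21 transcripts of *Satb1*, *Id2* and *Tox* have a GC content of 44.8%, 45.1% and 45.1%, and those of *Id3* and *Tox2* one of 55.6% and 56.1%. The other members lay between these in both GC content and gap, though not in strict order among themselves. Their gaps were 0.15 for *Lef1* at 46.1% GC, 0.25 for *Bach2* at 49.0%, 0.22 for *Bcl6* at 50.6%, 0.08 for *Sox4* at 51.1% and 0.13 for *Tcf7* at 52.3%. The part of base composition in these gaps was not tested.

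Of 21 listed TCF/LEF partners and genes of Wnt and β-catenin signalling, 16 were kept. In USP21-ΔTreg cells 2 of these passed 2-fold upwards and 0 downwards, against 7.78% and 6.2% of all kept genes. The median of this list was 0.25, beside 0.20 for all kept genes, and 0.06 both on scaled counts and when centred. *Axin2*, a feedback inhibitor and well-known target of β-catenin with TCF/LEF, stood at 9.52 FPKM in USP21-ΔTreg cells and 4.18 FPKM in WT Treg cells. Its log2 fold change was 1.17 and its ratio of scaled counts 2.18 (1.95 to 2.44). *Ctnnbip1*, an inhibitor that keeps β-catenin from TCF factors, had 2.19 FPKM in USP21-ΔTreg cells and 0.945 FPKM in WT Treg cells (log2 fold change 1.13). Among the TLE corepressors, *Tle4* had a log2 fold change of 0.78 and *Tle1* one of −0.99. Before 0.1 was added the FPKM ratio of *Tle1* was 0.483, past 2-fold, and its ratio of scaled counts was 0.433 (0.338 to 0.551). *Ctnnb1*, the gene of β-catenin, had 109 FPKM in USP21-ΔTreg cells and 121 FPKM in WT Treg cells.

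Of 10 listed genes of other HMG-box proteins, 6 were kept and none of these passed 2-fold. Their median was 0.61, beside 0.20 for all kept genes, but 0.42 when centred, 0.29 on scaled counts and 0.11 without a filter. The abundant nuclear protein genes *Hmgb2* (110 FPKM in USP21-ΔTreg cells and 59.2 FPKM in WT Treg cells) and *Hmgb1* (192 and 121 FPKM) had log2 fold changes of 0.89 and 0.66. *Ssrp1*, which encodes a subunit of the histone chaperone FACT, had one of −0.67 and the repressor gene *Hbp1* one of 0.69. On scaled counts the values were smaller for *Hmgb2* (0.50), *Hbp1* (0.35) and *Hmgb1* (0.27). Of 13 kept relatives, partners and corepressors of BACH2 and BCL6, 0 were higher and 1 was lower by at least 2-fold. The shares over all kept genes were 7.78% and 6.2%. The median of this list was −0.05, or −0.29 on scaled counts and −0.25 when centred. The lower gene was *Maff*, which encodes a small Maf protein, the class of partner with which BACH2 binds DNA. It stood at 2.90 FPKM in USP21-ΔTreg cells and 14.6 FPKM in WT Treg cells (log2 fold change −2.29). Its relative *Mafk* had a log2 fold change of −0.54. The corepressor genes *Tbl1xr1* and *Ncor1*, whose products work with BCL6, had log2 fold changes of 0.96 and 0.60, and of 0.51 and 0.24 on scaled counts.

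Gene programmes in which the members take part differed in mixed directions. Over all kept genes 7.78% passed 2-fold upwards and 6.2% downwards in USP21-ΔTreg cells, and the median on FPKM was 0.20. Of 16 kept naive and central memory T cell genes, 4 passed 2-fold upwards and 2 downwards. Their median was 0.57, or 0.37 when centred and 0.30 on scaled counts. *Fam101b* (2.28) and the IL-7 receptor gene *Il7r* (2.02) were the highest, and *Igfbp4* (−2.89) and the survival gene *Bcl2* (−1.47) the lowest. The study took its differing genes from these same libraries, so none of the genes listed here is independent evidence of a direction. Of 12 kept follicular T cell genes, 3 were higher and 2 lower. Their median had no steady sign, at 0.11 on FPKM, −0.08 when centred and −0.23 on scaled counts. *Pou2af1* (1.85), a coactivator gene of B cells and follicular T cells, and *Sh2d1a* (1.32), which encodes the adaptor SAP, were higher. *Ascl2* (−1.12), a factor of early follicular T cells, and *Cd200* (−1.04) were lower. Of 8 kept genes of TOX-dependent exhaustion, 1 was higher and 2 were lower. The sign of their median also turned, at 0.11 on FPKM, −0.09 when centred, −0.07 on scaled counts and −0.04 without a filter. They included *Tigit* (1.13), *Nr4a1* (−1.76) and *Nr4a3* (−2.32). The ratio of scaled counts of *Tigit* was 2.0004 (1.82 to 2.20), so that its call on counts turns on the 1 added before the log. On scaled counts with 1 added, 2 follicular genes were higher and 3 lower, and 0 exhaustion genes were higher and 3 lower. The shares over all kept genes on this scale were 4.36% higher and 7.91% lower.

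**Figure D4:**
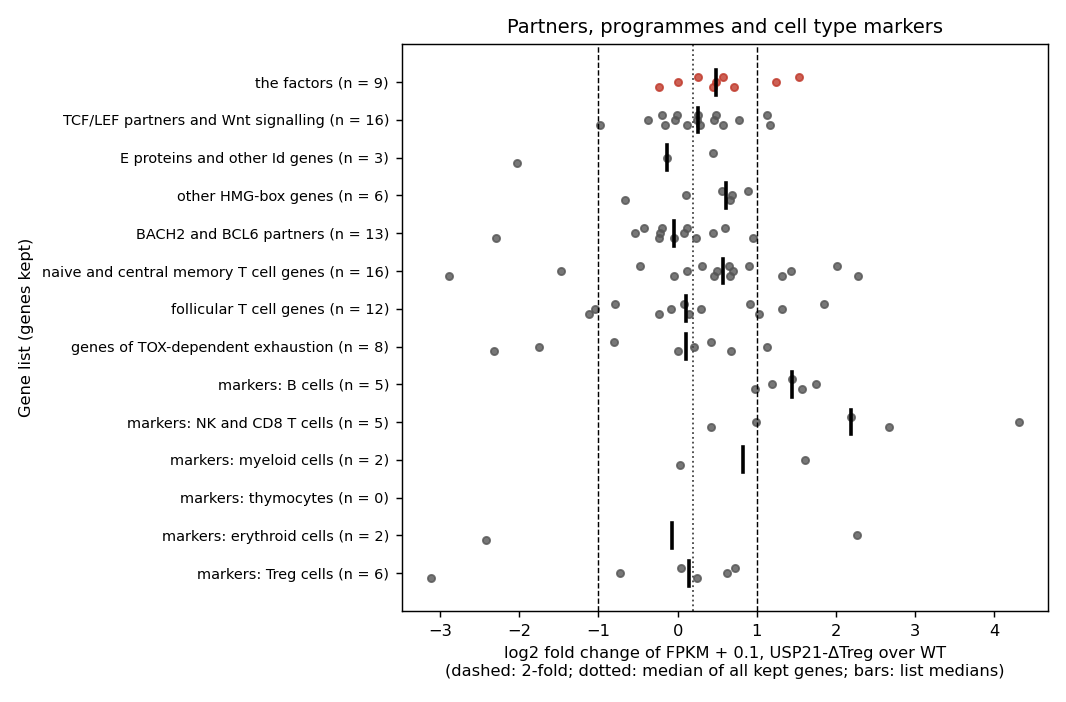
Log2 fold change of FPKM + 0.1, USP21-ΔTreg over WT, of each kept gene in the factors (red) and in the lists of partners, programmes and cell type markers (grey), with black bars for the list medians. The lists of B cell and of NK and CD8 T cell markers have medians of 1.44 and 2.19, above those of the factors, at 0.48, and of all other lists.

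Several members are also expressed by cells that the gate should remove, *Bcl6*, *Bach2* and *Id3* by B cells and *Id2*, *Tcf7* and *Tox* by NK or CD8 T cells. Of 5 kept markers of B cells, 4 passed 2-fold upwards in USP21-ΔTreg cells, against 7.78% of all kept genes. The 6 markers listed summed to 27.9 FPKM in USP21-ΔTreg cells and 11.3 FPKM in WT Treg cells, none was at 0, and *Pax5* stood at 0.240 FPKM (7 fragments) in USP21-ΔTreg cells and 0.0744 FPKM (2 fragments) in WT Treg cells. Of 5 kept markers of NK and CD8 T cells, 3 were at least 2-fold higher, against the same 7.78%. The 8 listed summed to 51.4 FPKM in USP21-ΔTreg cells and 13.05 FPKM in WT Treg cells. *Klrd1*, kept through its USP21-ΔTreg value, stood at 15.8 FPKM (198 fragments) there and 0.699 FPKM (11 fragments) in WT Treg cells. *Klrk1*, below the filter, stood at 1.34 FPKM (115 fragments) and 0.0718 FPKM (7 fragments) in the same order. Of the 7 myeloid markers, 2 were kept and 1 was higher by at least 2-fold, against 7.78% of all kept genes. The 7 summed to 100.035 FPKM in USP21-ΔTreg cells and 93.1 FPKM in WT Treg cells. *Cst3* alone made up 91.3 and 89.1 FPKM of these sums, so they say little about the other markers. *Lyz2*, the higher one, stood at 6.41 FPKM in USP21-ΔTreg cells and 2.03 FPKM in WT Treg cells. *Cd14*, below the filter, was lower, at 0.239 FPKM (6 fragments) and 0.638 FPKM (15 fragments) in the same order. Of the 3 erythroid markers, 2 were kept. *Hba-a1* was higher and *Hbb-b1* lower by 2-fold or more, against 7.78% and 6.2% of all kept genes. *Hbb-b1*, at 0.869 FPKM in USP21-ΔTreg cells, was kept through its WT value. The sums of the 3 were 44.8 FPKM in USP21-ΔTreg cells and 14.2 FPKM in WT Treg cells. The part of these cells in the values of the members was not tested. The defining markers of thymocytes, in which *Tcf7*, *Satb1*, *Sox4* and *Tox* are high, were near 0. Their sum was 0.333 FPKM in USP21-ΔTreg cells and 0.45 FPKM in WT Treg cells. *Rag1* stood at 0 in USP21-ΔTreg cells and 0.111 FPKM (19 fragments) in WT Treg cells. *Dntt* went the other way, at 0.290 FPKM (16 fragments) and 0.244 FPKM (14 fragments) in the same order. The T and Treg cell markers were present in both libraries, at 204 FPKM of *Cd4* in USP21-ΔTreg cells and 133 FPKM in WT Treg cells. Of the 6 listed, *Il2ra* was the 1 at least 2-fold lower, against 6.2% of all kept genes, and 0 were higher, against 7.78%.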

How the data were processed

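RNA of sorted CD4+CD25hiYFP+ cells was sequenced in 1 library per genotype. The labels describe Trizol extraction and a TruSeq RNA kit, while the methods of the study name a Qiagen kit and a strand-specific one. After removal of ribosomal and poor reads, the authors aligned to mm10 with TopHat2 2.0.9, and known gene models were quantified with Cufflinks 2.1.1. The authors deposited FPKM, which scales fragments by transcript length and library size. They also deposited estimated counts per gene, scaled between libraries. A fragment was given the commonest value above 0, which was 0.918 for USP21-ΔTreg and 1.03 for WT. In both libraries 97.2% of nonzero counts were then whole, within 0.02.

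Python 3.11.15 was used with scipy 1.17.1, pandas 2.3.3, matplotlib 3.10.9 and numpy 2.4.6, and the fold change step was tested on simulated data. Intervals cover counting error only, and fragments were not counted by molecular identifier. A pseudocount of 0.1 FPKM, a minimum mean of 1 FPKM and a 2-fold limit were used. Gene coordinates are those of the deposited table, and strand, exons and transcripts come from GENCODE M21. The named genes are all members, *Usp21*, *Foxp3* and *Il2ra*, and, of each of 7 lists, up to 4 kept genes with the largest difference and 1 in the opposite direction. *Ctnnb1*, *Prdm1*, *Pax5*, *Rag1*, *Dntt*, *Cd4*, *Klrd1*, *Klrk1*, *Cst3*, *Lyz2*, *Cd14*, *Hba-a1* and *Hbb-b1* were named after their values were seen. The members and lists were chosen with earlier results of these data known. As 2 libraries give only a single ratio per gene, no gene is named for a pattern like that of a member. Alternatives were another pseudocount, filter, scale or fold limit.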

Additional observations from a re-analysis of the deposited data

How the results depend on the processing

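*Tcf7* and *Bcl6* stayed at least 2-fold higher, and no other member passed 2-fold, in each alternative run at that limit, with log2 fold changes from 1.05 to 1.28 for *Tcf7* and from 1.32 to 1.56 for *Bcl6*. *Satb1* was negative on scaled counts alone, and *Bach2* lay between −0.25 and 0.03. At a limit of 1.5-fold 3 of the 9 kept members were higher, beside 2506 of the 10948 kept genes. At 3-fold 0 were higher, beside 178 of the 10948. The median of the members was 0.34 on scaled counts and 0.29 when centred on the median of kept genes. Of all genes kept, 852 passed 2-fold upwards on FPKM + 0.1, 482 with 1 FPKM added, 1460 without a filter, 447 at a mean of at least 5 FPKM, 477 on scaled counts and 488 when centred. At 1.5-fold 2506 were higher and 1326 lower, against 679 lower at 2-fold, and at 3-fold 178 were higher and 312 lower. Higher and lower genes numbered 852 and 679 on FPKM, but 477 and 866 on scaled counts and 488 and 913 when centred. Of the other comparisons, single members and list medians, 96 moved by no more than the width of the counting interval to either side and 31 by more, where for list medians the median width of the members was used, and none that was past 2-fold changed sign. No paired analysis was possible because a genotype is represented by a single library. With 26 to 92 fragments per library, *Tox2* and *Sox4* allow no statement on a direction.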
